A study of Ovis aries with 30 samples.

Results

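The drug-metabolizing enzymes of lamb liver described here are the gene rows whose symbols begin with the names of the cytochrome P450 families CYP2, CYP3 and CYP4, the UDP-glucuronosyltransferases UGT1, UGT2 and UGT3, the sulfotransferases (SULT), the glutathione S-transferases (GST) of the classes A, M, O, P, T and Z, the microsomal glutathione S-transferases (MGST) or the flavin-containing monooxygenases (FMO). There were 28 such rows among 31304 gene rows. They comprised 8 P450 rows, 5 FMO rows, 5 UGT rows, 4 SULT rows and 6 GST and MGST rows. The same letters also matched CYP24, an older symbol of the vitamin D 24-hydroxylase, and FMOD, which is fibromodulin, a proteoglycan of connective tissue. Both were set aside, at means of 0.160 and 0.594 CPM (counts per mega-count of the scaled library size). P450 symbols of vitamin, retinoid and sterol metabolism (CYP24A1, CYP26, CYP27, CYP39A1 and CYP46A1) were left out by the same choice, and UGT8, GSTK1 and GSTCD did not match it. Rows that carry only a LOC identifier were not searched, so enzymes without a symbol are not covered.

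Total RNA of whole liver was sequenced from 30 F1 lambs of sheep (Ovis aries). The study compared lambs whose exposure to biosolids began before conception and lasted through gestation with unexposed lambs, and its title speaks of sex-specific effects. Biosolids are processed sewage sludge that is spread as fertiliser and carries a mixture of environmental chemicals. The groups were Biosolids Female (n = 8), Control Female (n = 8), Biosolids Male (n = 7) and Control Male (n = 7), each lamb with its own tag number. The labels used here give no age, breed or litter, so the p-values measure the spread between these lambs and treat each lamb as independent.

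Drug metabolism in liver is usually divided into phases. In phase 1, P450 enzymes and flavin-containing monooxygenases insert oxygen into lipid-soluble molecules, with electrons from NADPH. In phase 2, transferases attach glucuronic acid, sulfate or glutathione, and the products leave the cell through transporters into bile or blood. Most of these enzymes sit in hepatocytes, and in mammals many of the P450 enzymes are most abundant around the central vein. The nuclear receptors CAR (gene NR1I3) and PXR (gene NR1I2) and the aryl hydrocarbon receptor (gene AHR) are the best known sensors through which foreign chemicals induce them. The 28 rows held 13 phase 1 and 15 phase 2 genes.

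Libraries held 24.1 to 42.8 M counts (mega-counts) in biosolids females, 29.8 to 39.1 M in control females, 18.7 to 43.3 M in biosolids males, and 32.7 to 51.9 M in control males. Ribosomal RNA rows took 87.5% of the counts of biosolids male 8778, against 0.299 to 7.69% in the other 29 lambs, which left 2.34 M counts for its other genes. A second library stood apart by its sex label. Control male 8408 held 302 CPM of LOC101112291, a long non-coding RNA row of the X chromosome, where the other 13 males held at most 2.05 CPM and the 16 females held between 318 and 824 CPM. Its sex label was kept, and whether the label is right was not settled. Another library, that of control female 8263, had interferon-stimulated genes at a median of 4.37 log2 units above its group's mean. Hepatocyte markers (9 of 11 listed had a row) summed to at least 63164 CPM in every lamb, and none of these rows was at 0 in all lambs. Whole tissue was sequenced, so fewer cells of a type and less RNA per cell cannot be told apart in any value below.

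CYP2E1 dominated the enzymes at the RNA level. Levels of different genes were compared per length, as RPKM (CPM divided by the exon length in kilobases). CYP2E1, which oxidises ethanol, acetone and small solvents, averaged 4396 ± 1146 RPKM over the 30 lambs (SD) and ranked 12th from the top among the 17840 genes tested. It took 65.8% of the summed RPKM of all members, and between 59.6 and 73.6% in single lambs. The P450 rows together took 80.7%, the GST and MGST rows 8.83%, the FMO rows 8.08%, the UGT rows 2.34% and the SULT rows 0.0354%. By counts, the members together made up between 0.942 and 1.93% of all counts outside ribosomal RNA.

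**Figure D1:**
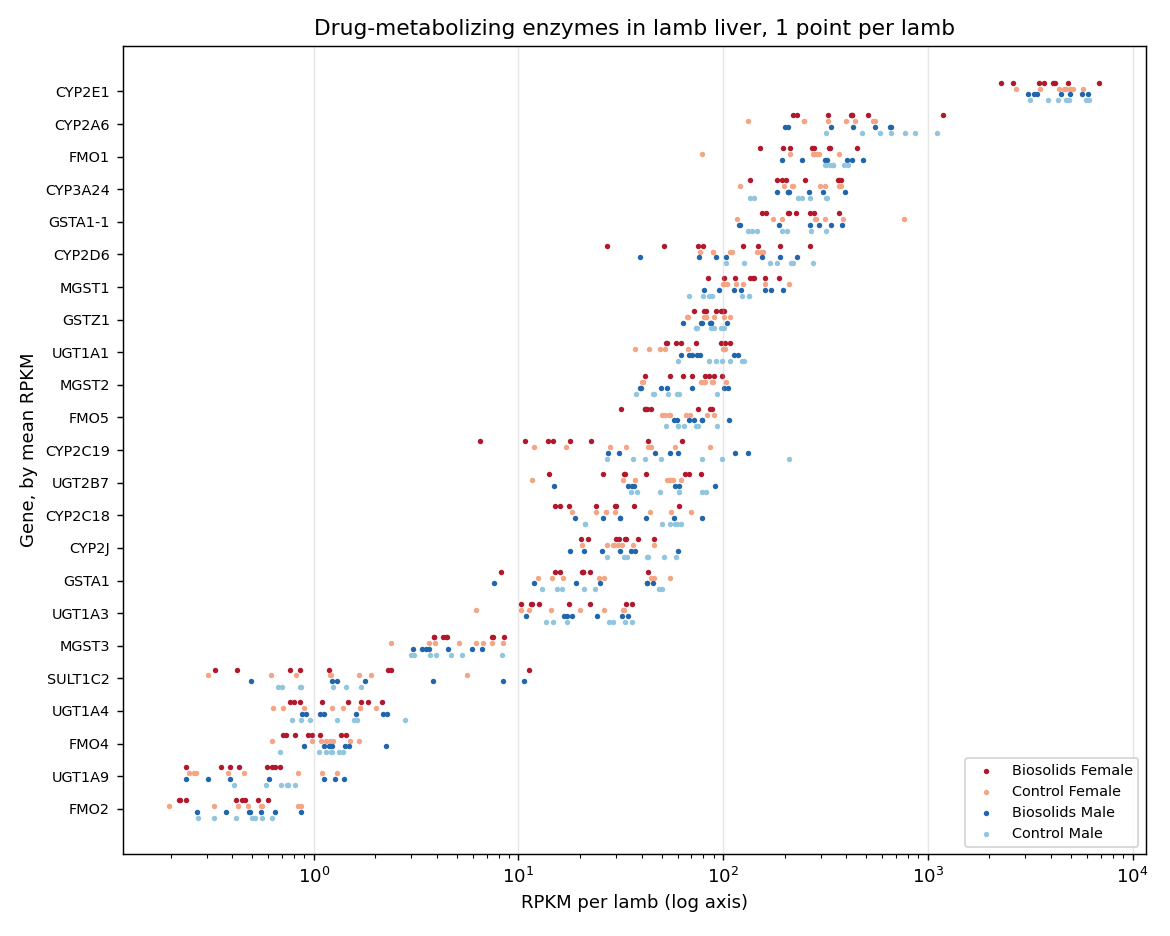
RPKM of 23 tested enzymes in each of the 30 lambs on a log axis, 1 point per lamb, with genes ordered by their mean and groups coloured. CYP2E1 stands alone at the top with a mean of 4396 RPKM, most other genes overlap with their neighbours, and SULT1C2 and CYP2C19 have the widest rows of points.

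After CYP2E1 the order by mean RPKM ran through CYP2A6 (482 ± 254), FMO1 (304 ± 88.8), CYP3A24 (254 ± 81.7), GSTA1-1 (249.9 ± 127), CYP2D6 (136 ± 64.5), MGST1 (124 ± 36.3), GSTZ1 (86.2 ± 12.1) and UGT1A1 (81.3 ± 25.6), with the SD over 30 lambs. CYP2E1 exceeded CYP2A6 in 30 of 30 lambs. Neighbours in this order otherwise differed by less than the larger SD, except that MGST1 lay above GSTZ1 in 27 lambs, UGT1A3 above MGST3 in 29 lambs and FMO4 above UGT1A9 in 27 lambs. MGST2, FMO5, CYP2C19, UGT2B7, CYP2C18, CYP2J, GSTA1 and UGT1A3 followed between 68.1 and 21.1 RPKM. The lowest of the tested rows per length were MGST3 (5.03 RPKM), SULT1C2 (2.27), UGT1A4 (1.36), FMO4 (1.17), UGT1A9 (0.629) and FMO2 (0.475), the last of which is the main FMO of lung in many mammals. These places depend on the annotated exon length, which is 11180 bases for MGST3 and 20912 bases for FMO4. Not divided by length, MGST3 averaged 56.2 CPM and FMO4 24.5 CPM, against 43.8 CPM for MGST2 and 7.70 CPM for SULT1C2.

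The other 4 members did not reach the filter on low counts and were not tested. SULT2B1, a hydroxysteroid sulfotransferase, had 75 counts over all libraries in 17 lambs. SULT4A1, known from brain, had 39 counts in 12 lambs, CYP4F21, which was described as a prostaglandin hydroxylase of ram seminal vesicle, had 6 counts in 4 lambs, and SULT6B1 had 5 counts in 2 lambs. A count of 3 in a library corresponds to between 0.0604 and 1.06 CPM, the highest in biosolids male 8778. This floor concerns counting error and is not a limit of detection. Lambs with lower counts are included above, such as biosolids male 8764 at 0.0235 CPM of SULT6B1, and such levels are uncertain.

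The 4 UGT1A rows on chromosome 1 share their last exons, between 59.3 and 60.9% of each row's exon bases, and the sources used here do not say how reads in shared exons were assigned. Divided by the unshared exon bases alone, UGT1A1 averaged 207 RPKM and UGT1A3 53.9 RPKM, so the place of these rows in the order is less certain. GSTZ1 overlaps POMT2 on the opposite strand over 14.8% of its exon bases, and SULT6B1 overlaps CEBPZOS over 86.1%.

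No enzyme of the group passed in any comparison. In females, 0 of 24 tested members were called for exposure at an adjusted p under 0.05 (edgeR quasi-likelihood test, Benjamini-Hochberg), where 0% of all 17840 tested genes were called. At an unadjusted p under 0.05 there were 0 members, against 3.65% of all genes. In males, 0 were called for exposure (0% of all genes) and 1 had an unadjusted p under 0.05 (5.44% of all genes). Over both sexes, 0 were called (0%) and 1 had an unadjusted p under 0.05 (4.3%), and for the interaction of exposure and sex, 0 were called (0%) and 1 had an unadjusted p under 0.05 (3.63%). DESeq2 and limma voom with sample weights called 0 members in each of these comparisons. The exposure, interaction and sex comparisons share lambs, so they are not independent of each other.

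Fold changes of the members lay on both sides of 0. In females 12 had a positive and 12 a negative log2 fold change of biosolids over control, with a median of -0.00068 beside -0.015 over all genes tested, of which 45.9% were positive. In males 11 were positive and 13 negative, with a median of -0.023 beside 0.0088 over all genes, of which 51.3% were positive. Averaged over both sexes 9 were positive (48.9% of all genes), and for the interaction 14 were positive (53.4% of all genes). For the 24 members the groups' CPM values overlapped in each comparison between 2 groups, so 0 members had groups that did not overlap. Among all genes that share was 0% for exposure in females, 0.0561% for exposure in males, 0.213% for sex in controls and 0.0673% for sex in biosolids lambs.

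**Figure D2:**
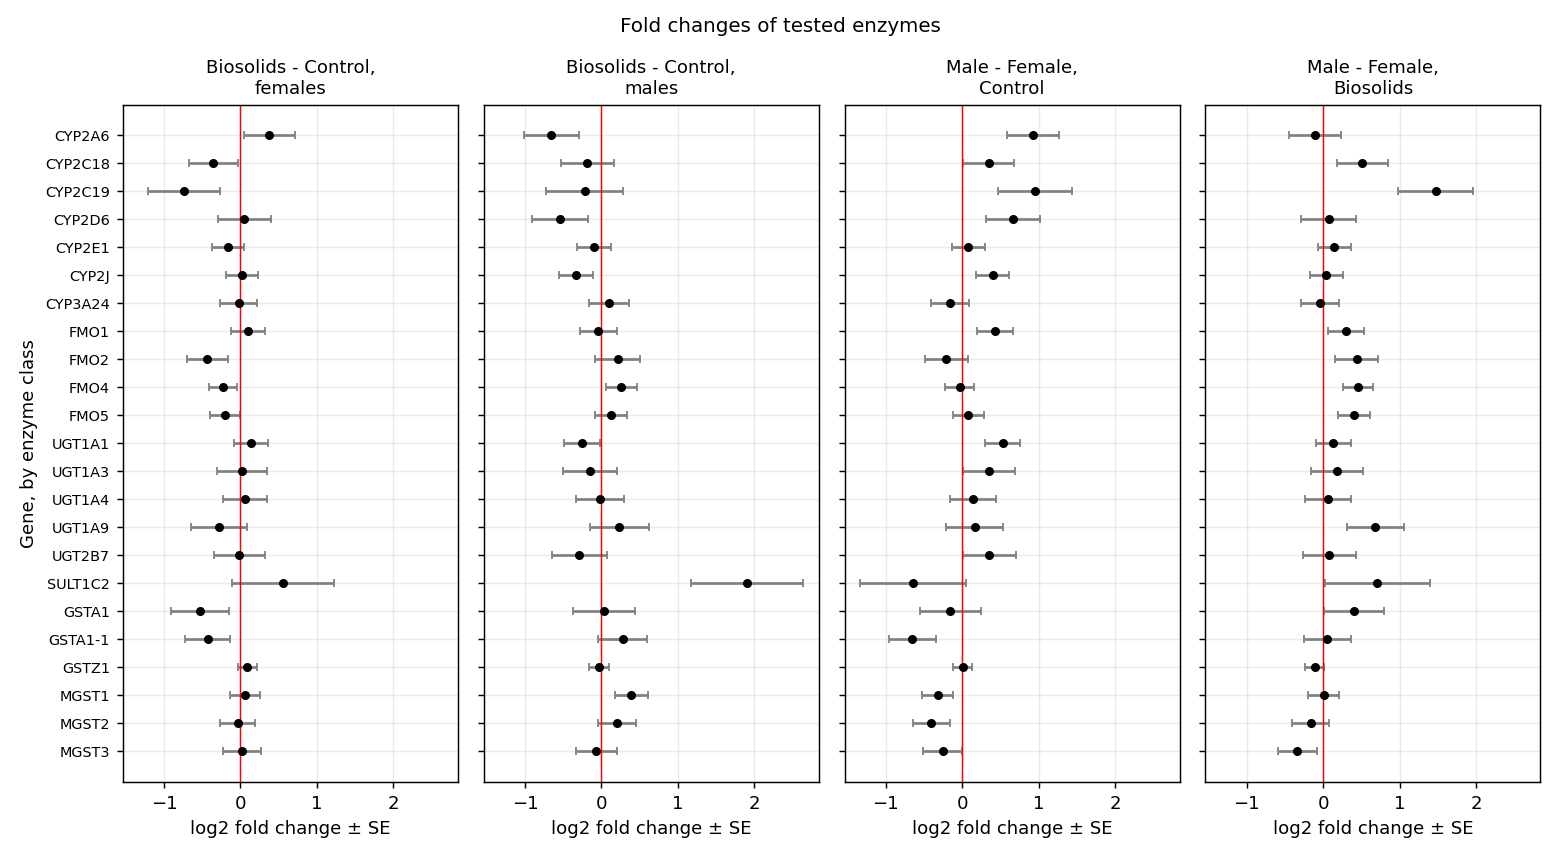
Log2 fold change with its standard error (SE) for 23 tested enzymes, ordered by class, for biosolids minus control in females and in males and for male minus female in control and in biosolids lambs. The points scatter on both sides of 0, SULT1C2 in males reaches 1.91 with the longest bar, and CYP2C19 reaches 1.47 between the sexes of biosolids lambs.

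Among the P450 enzymes, CYP2E1 (chromosome 22, 51437454 to 51447921 in assembly ARS-UI_Ramb_v3.0) was high in each group. It had a lowest, median and highest value of 3844, 6609 and 11652 CPM in biosolids females, against 4556, 7936 and 9721 CPM in control females. Biosolids males held 5221, 7611 and 10260.4 CPM and control males 5369, 7999.8 and 10408 CPM. The groups overlapped over nearly their whole range, although 2 biosolids females lay under the lowest control female and 1 above the highest. For exposure, log2 fold changes were -0.16 ± 0.21 (SE) in females and -0.09 ± 0.22 in males, and with any 1 lamb left out they stayed between -0.32 and -0.018.

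CYP2A6 (chromosome 14, 49535330 to 49544572), whose human counterpart oxidises nicotine and coumarin, had the most unlike fold changes in the 2 sexes of any P450. In females its lowest, median and highest levels were 582, 1118 and 3124 CPM with biosolids, against 347, 954 and 1458 CPM in controls. In males they were 532, 1135 and 1736 CPM with biosolids, against 842, 1739.7 and 2931 CPM in controls. In males 4 of 7 controls lay above the highest biosolids lamb and 2 of 7 biosolids lambs lay under the lowest control, while in females 1 biosolids lamb, 8733, lay above all controls.

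For CYP2A6 the log2 fold change with exposure was 0.38 ± 0.33 (SE) in females, with an unadjusted p of 0.265, and -0.65 ± 0.35 in males, with an unadjusted p of 0.075. The difference between these effects, male minus female, was -1.03 ± 0.48, with an unadjusted p of 0.0419 and a Benjamini-Hochberg adjusted p of 0.951 (edgeR quasi-likelihood test). Without lamb 8733 the effect in females was 0.020 and the difference between the sexes -0.67. Without biosolids male 8778 the effect in males was -0.54, and without control male 8408 it was -0.62.

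CYP2C19 and CYP2C18 are neighbours on chromosome 22 (16109196 to 16361443 and 15644655 to 15686400), and the human enzymes belong to a subfamily that clears many drugs. For CYP2C19 the lowest, median and highest levels were 17.6, 44.3 and 172 CPM in biosolids females, against 32.5, 103 and 234 CPM in control females. They were 74.3, 149.9 and 357 CPM in biosolids males, against 73.7, 135 and 572 CPM in control males, where the highest lamb was 8408. In females 6 of 8 biosolids lambs lay at or under the control median and 2 under the lowest control, and the ranges still overlapped.

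In females the log2 fold change of CYP2C19, biosolids over control, was -0.74 ± 0.47 (SE, unadjusted p of 0.125). It was -1.12 without biosolids female 8668, which held the highest level of its group, and -0.49 without control female 8269. In males it was -0.22 ± 0.50, and its sign turned to 0.27 without control male 8408. Averaged over both sexes it was -0.48 ± 0.34, and -0.24 without control male 8408. CYP2C18 had an average of -0.27 ± 0.24, which was -0.17 without control female 8269 and -0.40 without biosolids female 8733. For CYP2C18, biosolids lambs had medians of 60.3 CPM in females and 70.7 CPM in males, against 63.4 and 123 CPM in controls of the same sexes.

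The other P450 rows were described by their ranges. CYP3A24, a member of the CYP3A subfamily that metabolises many drugs and steroids, had medians of 377 CPM in biosolids females, 427 CPM in control females, 348 CPM in biosolids males and 401 CPM in control males, with fold changes between -0.02 and 0.10 for exposure. CYP2D6, whose human counterpart oxidises codeine and many basic drugs, ranged from 44.6 to 440.4 CPM in biosolids females, against 128 to 259 CPM in control females. It ranged from 65.0 to 380.3 CPM in biosolids males, against 172 to 455 CPM in control males. In both sexes the lowest CYP2D6 values belonged to biosolids lambs, 8649 in females and 8735 in males. In females 3 biosolids lambs lay under all controls and 2 lay above all controls. The log2 fold change of CYP2D6 for exposure was 0.051 ± 0.34 (SE) in females and -0.55 ± 0.37 in males, with an unadjusted p of 0.15 in males (edgeR quasi-likelihood test).

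CYP2J, from a subfamily that makes epoxides of arachidonic acid in humans, had a median of 72.3 CPM in biosolids males and 98.3 CPM in control males. Among the biosolids males 3 of 7 lay under the lowest control and 1, lamb 8770, above the highest. This gave a log2 fold change of -0.34 ± 0.22 (SE; unadjusted p of 0.14), of -0.54 without lamb 8770 and of -0.23 without control male 8394. Under the other settings it lay between -0.33 and -0.20. In females it was 0.018 ± 0.21.

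**Figure D3:**
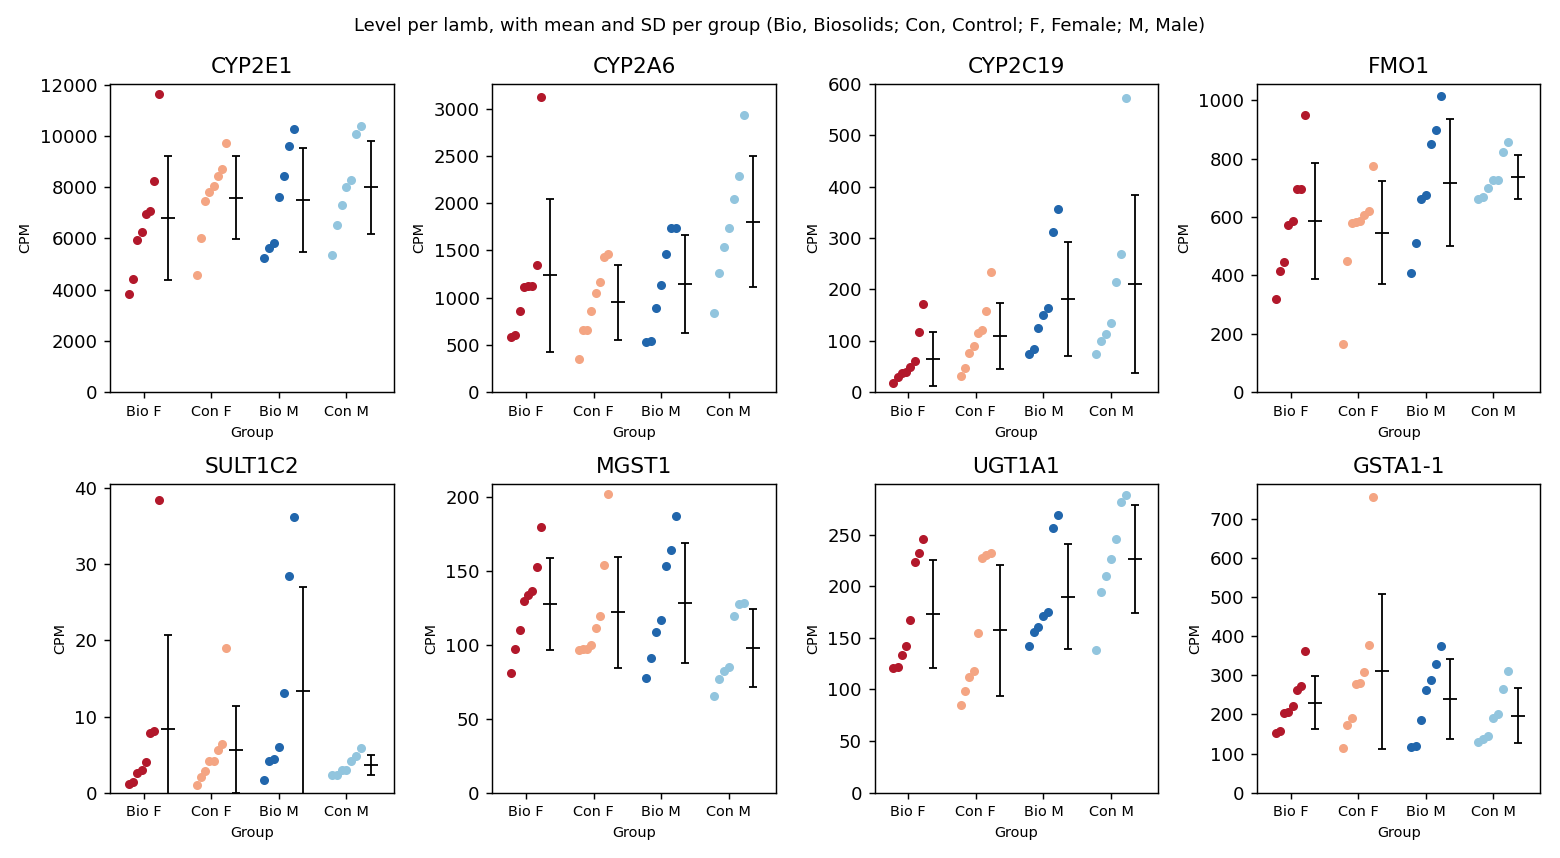
CPM of 8 enzymes per lamb on linear axes from 0, lambs sorted within each group, with the mean and SD of the group beside the points (for SULT1C2 the SD bars reach below 0 and end at the axis). Groups overlap in each of the 8 plots, and single lambs such as 8733 for CYP2A6 (3124 CPM) and 8408 for CYP2C19 (572 CPM) lie apart from their group.

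The flavin-containing monooxygenases add oxygen to nitrogen and sulfur atoms, and several of them lie side by side on chromosome 12. FMO1 (38086635 to 38125634) had a lowest, median and highest level of 318, 579 and 947 CPM in biosolids females, against 167, 586 and 773 CPM in control females. In males it had 407, 674 and 1014 CPM with biosolids, against 662, 726 and 857 CPM in controls. Both biosolids groups reached above the highest control, and the lowest single lamb of all was control female 8263.

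FMO4 (38143480 to 38198932) and FMO2 (38034067 to 38078437) had low levels per length. FMO4 had 18.8, 25.6 and 47.4 CPM (lowest, median, highest) in biosolids males, against 14.2, 25.3 and 29.2 CPM in control males. In females it had 14.7, 20.1 and 30.0 CPM with biosolids, against 13.0, 24.5 and 34.8 CPM in controls. Among the males, 3 of 7 biosolids lambs lay above all controls.

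The difference between the exposure effects on FMO4, male minus female, was 0.49 ± 0.27 (SE), with an unadjusted p of 0.0831, and 0.33 without biosolids male 8770. FMO2 had a log2 fold change of -0.43 ± 0.27 for exposure in females, from medians of 2.87 CPM in biosolids and 3.43 CPM in control females, with an unadjusted p of 0.122. FMO5, which oxidises ketones to esters in humans, had a fold change of -0.20 ± 0.20 in females and 0.12 ± 0.21 in males.

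Of the glucuronosyltransferases, UGT1A1 (chromosome 1, 7254898 to 7268056), the enzyme that conjugates bilirubin, was the most abundant. Its lowest, median and highest levels were 120.3, 155 and 246 CPM in biosolids females, against 84.8, 136 and 232 CPM in control females. In males they were 142, 171 and 269 CPM with biosolids, against 138, 226 and 289 CPM in controls. The ranges overlapped in both sexes, with the lowest lamb of all again control female 8263.

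For UGT1A1 the fold change for exposure was 0.14 ± 0.22 (SE) in females and -0.25 ± 0.23 in males. The value in females was 0.050 without control female 8263. The difference, male minus female, was -0.39 ± 0.32, with an unadjusted p of 0.23. UGT2B7 (chromosome 6, 85046065 to 85062199), which conjugates morphine in humans, had medians of 91.1 CPM in biosolids females and 131 CPM in control females. In males its medians were 88.8 CPM with biosolids and 148 CPM in controls. Its fold changes were -0.017 ± 0.33 in females and -0.29 ± 0.36 in males, the last between -0.52 without lamb 8770 and -0.13 without lamb 8735, and biosolids lambs held the highest value of each sex.

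Of the sulfotransferases, SULT1C2 (chromosome 3, 61851144 to 61865167), which sulfonates small phenols, was the only one tested and had the smallest p of the members for exposure in males and over both sexes. In males its lowest, median and highest levels were 1.67, 6.03 and 36.2 CPM with biosolids, against 2.27, 2.93 and 5.80 CPM in controls. Among biosolids males 4 of 7 lay above the highest control, 8762 and 8770 by the most, and 1 lay under the lowest control. In females the levels were 1.12, 3.48 and 38.4 CPM with biosolids, against 1.03, 4.12 and 19.0 CPM in controls, with 1 biosolids lamb, 8653, above all controls.

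The log2 fold change of SULT1C2 in males was 1.91 ± 0.73 (SE), with an unadjusted p of 0.0146 and a Benjamini-Hochberg adjusted p of 0.816 (edgeR quasi-likelihood test). The adjusted p lay between 0.43 and 0.995 under the alternatives, and the fold change was 1.43 without lamb 8762 and 2.01 without lamb 8778. In females the fold change was 0.56 ± 0.66, and it was -0.50 without lamb 8653. Averaged over both sexes it was 1.23 ± 0.49, with an unadjusted p of 0.0183, and 0.71 without lamb 8653. The difference between the sexes was 1.35 ± 0.98, with an unadjusted p of 0.177, and it lay between 0.76 without control female 8245 and 2.41 without biosolids female 8653.

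The glutathione transferases conjugate reactive electrophiles. GSTA1-1 and GSTA1, alpha-class rows 31.2 kilobases apart on chromosome 20, had medians of 215 and 39.6 CPM in biosolids females, against 279 and 49.0 CPM in control females. In males the medians were 262 and 48.0 CPM with biosolids, against 191 and 40.3 CPM in controls. For GSTA1-1 the fold change for exposure was -0.43 ± 0.30 (SE) in females and 0.28 ± 0.32 in males. It was -0.096 in females without control female 8378, which held the highest value of all, 757 CPM, and 0.14 in males without biosolids male 8778. The difference between the sexes was 0.71 ± 0.44, with an unadjusted p of 0.115, and 0.37 without lamb 8378.

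MGST1, an enzyme of microsomal and mitochondrial membranes, had a lowest, median and highest level of 77.6, 117 and 187 CPM in biosolids males, against 65.1, 84.9 and 128 CPM in control males. In females it had 81.1, 132 and 179 CPM with biosolids, against 96.3, 106 and 202 CPM in controls. Among the males, 3 of 7 biosolids lambs lay above the highest control and 2 of 7 controls under the lowest biosolids lamb. The fold change was 0.39 ± 0.21 (SE) in males, with an unadjusted p of 0.0727, and 0.063 ± 0.20 in females. In males it was 0.28 without lamb 8764 and 0.32 without lamb 8778.

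MGST2, which can make leukotriene C4, had a fold change of -0.036 ± 0.23 (SE) in females and 0.20 ± 0.25 in males. For MGST3 the values were 0.020 ± 0.24 and -0.064 ± 0.26. GSTZ1, which also serves tyrosine breakdown as maleylacetoacetate isomerase, had medians of 257 CPM in biosolids females, 223 CPM in control females, 233 CPM in biosolids males and 235 CPM in control males.

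Male and female livers were also compared within each exposure. No member passed. Between control males and control females, 0 members were called (0.0841% of all genes) and 3 had an unadjusted p under 0.05 (18.9% of all genes). Between biosolids males and biosolids females, 0 were called (0.0953%) and 2 had an unadjusted p under 0.05 (4.85%). DESeq2 and limma voom with sample weights called 0 in both. Of the 24 members, 14 had a positive fold change of male over female in controls (45.4% of all genes) and 18 in biosolids lambs (50% of all genes). Their median was 0.077 in controls and 0.11 in biosolids lambs, beside -0.043 and 0.00014 over all genes tested.

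In controls the smallest p belonged to CYP2A6. As given above, its median was 1739.7 CPM in males and 954 CPM in females, and 5 of 7 control males lay above all control females while 3 of 8 females lay under all males. The log2 fold change was 0.92 ± 0.34 (SE), with an unadjusted p of 0.0112 and a Benjamini-Hochberg adjusted p of 0.216 (edgeR quasi-likelihood test). The adjusted p lay between 0.0796 and 0.368 under the alternatives, and the fold change was 0.89 without control male 8408 and 0.78 without control female 8263. In biosolids lambs the fold change of CYP2A6 by sex was -0.11 ± 0.34.

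UGT1A1 had a median of 226 CPM in control males and 136 CPM in control females. Among these males 3 of 7 lay above all females, and 4 of 8 females lay under all males. The log2 fold change was 0.53 ± 0.23 (SE), with an unadjusted p of 0.0268, and 0.42 without control female 8263. Summed perivenous markers had a median of 954 CPM in control males and 715 CPM in control females, and summed hepatocyte markers 101112 and 81938 CPM. Periportal markers were also higher in control males (8678 against 6067 CPM). So were cholangiocyte (259 against 146), stellate cell and fibroblast (512 against 282) and sinusoidal endothelium markers (838 against 687). The medians of the macrophage, T and NK cell, interferon-stimulated and erythroid lists were lower in control males. The part of all these markers in the levels of the enzymes was not tested.

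GSTA1-1 and MGST2 had negative fold changes between control males and control females. For GSTA1-1 it was -0.65 ± 0.31 (SE), with an unadjusted p of 0.0439. That value was -0.32 without control female 8378 and -0.80 without control male 8408. For MGST2 it was -0.40 ± 0.24, with medians of 34.8 CPM in control males and 52.1 CPM in control females.

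In biosolids lambs the smallest p by sex belonged to CYP2C19. Its medians of 149.9 CPM in males and 44.3 CPM in females were given above, and 6 of 8 biosolids females lay under the lowest biosolids male while 2 of 7 males lay above all females. The log2 fold change was 1.47 ± 0.49 (SE), with an unadjusted p of 0.00538 and a Benjamini-Hochberg adjusted p of 0.835 (edgeR quasi-likelihood test). The adjusted p lay between 0.181 and 1 under the alternatives, and the fold change was 1.85 without biosolids female 8668, 1.21 without biosolids male 8770 and 1.58 without biosolids male 8778. In control lambs the fold change of CYP2C19 by sex was 0.95 ± 0.48, with an unadjusted p of 0.0604, and it was 0.46 without control male 8408. The difference between these 2 values is the interaction, 0.52 ± 0.69, with an unadjusted p of 0.45. Without control male 8408 the interaction was 1.01, and without control female 8269 it was 0.27.

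FMO4 had a fold change of 0.45 ± 0.19 (SE) between biosolids males and females, with an unadjusted p of 0.0257, and 0.28 without biosolids male 8770. The members with negative values and the smallest p were MGST3, at -0.34 ± 0.25, and GSTZ1, at -0.11 ± 0.12. For MGST3 the median was 41.1 CPM in biosolids males and 49.5 CPM in biosolids females, and the ranges overlapped.

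Other genes of the same pathway were taken as a list of receptors and transcription factors, electron donors and cofactor enzymes, other oxidising, hydrolysing and conjugating enzymes, and transporters. Of these, 60 were tested, and 0 were called in any of the 6 comparisons, whether by edgeR (quasi-likelihood test, Benjamini-Hochberg), DESeq2 or limma voom. For exposure in females, 28 were positive and 32 negative (45.9% of all genes were positive), with 1 at an unadjusted p under 0.05 (3.65% of all genes). In males, 20 were positive and 40 negative (51.3% of all genes were positive), with 3 at an unadjusted p under 0.05 (5.44% of all genes), so these small p-values were about as frequent as among all genes. Of the 18 regulators tested, 5 were positive and 13 negative for exposure in females, and 2 were positive and 16 negative in males. The sensors NR1I2, NR1I3 and AHR had fold changes of -0.056 ± 0.17, -0.28 ± 0.20 and -0.16 ± 0.20 (SE) in females. In males they had -0.16 ± 0.18, -0.049 ± 0.21 and -0.27 ± 0.21.

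Between control males and control females, 48 of the 60 were positive (45.4% of all genes) and 14 had an unadjusted p under 0.05 (18.9% of all genes). Between biosolids males and females 44 were positive (50% of all genes) and 5 had an unadjusted p under 0.05 (4.85% of all genes). The median log2 fold change of the 60 was 0.26 in controls and 0.15 in biosolids lambs, beside -0.043 and 0.00014 over all genes tested. FOXA1, a transcription factor of the hepatocyte lineage, had the smallest p of the list in both, at 0.51 ± 0.15 and 0.42 ± 0.15 (SE). For exposure in females the smallest p belonged to MAOA, monoamine oxidase A, at 0.49 ± 0.17. In males it belonged to SLC47A1, an efflux transporter of organic cations, at -0.76 ± 0.31. For the interaction it belonged to CEBPB, a transcription factor of the acute-phase response, at -0.81 ± 0.28.

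The enzymes differed in how much they varied between lambs of the same group. SULT1C2 had a within-group SD of 1.32 on the log2 CPM scale, more than 98.3% of the tested genes with at least 1 CPM, and its highest lamb held 37.1 times the level of its lowest. CYP2C19 followed at 0.97, more than 95.8% of genes, with 32.6 times between its extremes. GSTA1 (0.82), CYP2D6 (0.76) and UGT2B7 (0.75) came next. GSTZ1 was the steadiest at 0.21, more than 10.5% of genes, with 1.70 times between its extremes. CYP2E1 stood at 0.40 and varied 3.03 times.

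Several lambs were low or high in many of the enzymes at once. The median deviation of the 24 members from the mean of their own group, on the log2 CPM scale, was lowest in biosolids female 8647 (-0.44, with 20 of 24 members under the group mean) and biosolids male 8735 (-0.43, 18 of 24). Biosolids females 8649 and 8714 (-0.31 and -0.28) and control female 8263 (-0.31) followed. In 8647 and 8735 each of the 7 tested P450 rows lay under the group mean. The highest were biosolids female 8733 (0.56, with 19 of 24 members above), and control females 8269 (0.41) and 8378 (0.38). The same share over all tested genes was not worked out for each lamb, so these counts cannot be read as particular to the enzymes.

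The scaling of the libraries differed between these lambs. The TMM-scaled library size was between 1.28 and 1.31 times the counts outside ribosomal RNA in the 5 lowest lambs, against 1.001 in lamb 8733, 1.17 in 8269 and 1.12 in 8378. It was also 1.29 in control female 8353 and 1.27 in control female 8322, whose members deviated by -0.019 and 0.028, while it was 1.05 in control male 8425 and 0.989 in control male 8394, whose members deviated by -0.19 and -0.18. Hepatocyte markers deviated by -0.20 in lamb 8647, -0.49 in 8735, -0.12 in 8649, -0.41 in 8714 and -0.085 in 8263. In the 3 highest lambs they deviated by 0.46 in 8733, 0.024 in 8269 and 0.11 in 8378. Perivenous markers deviated by -0.20 in lamb 8647, -0.44 in 8735, -0.58 in 8649, -0.35 in 8714, -0.47 in 8263, 0.50 in 8733, 0.11 in 8269 and 0.075 in 8378. Periportal markers deviated by -0.11 in lamb 8647, -0.37 in 8735, 0.0076 in 8649, -0.65 in 8714 and -0.33 in 8263. The 3 highest lambs had periportal deviations of 0.16 in 8733, -0.35 in 8269 and -0.038 in 8378. Cholangiocyte markers deviated by 3.01 and stellate cell and fibroblast markers by 0.94 in lamb 8649, and in the other 4 low lambs by -0.79 to -0.32 and by -0.64 to 0.13. The part of the scaling and of these markers in the levels of the enzymes was not tested.

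**Figure D4:**
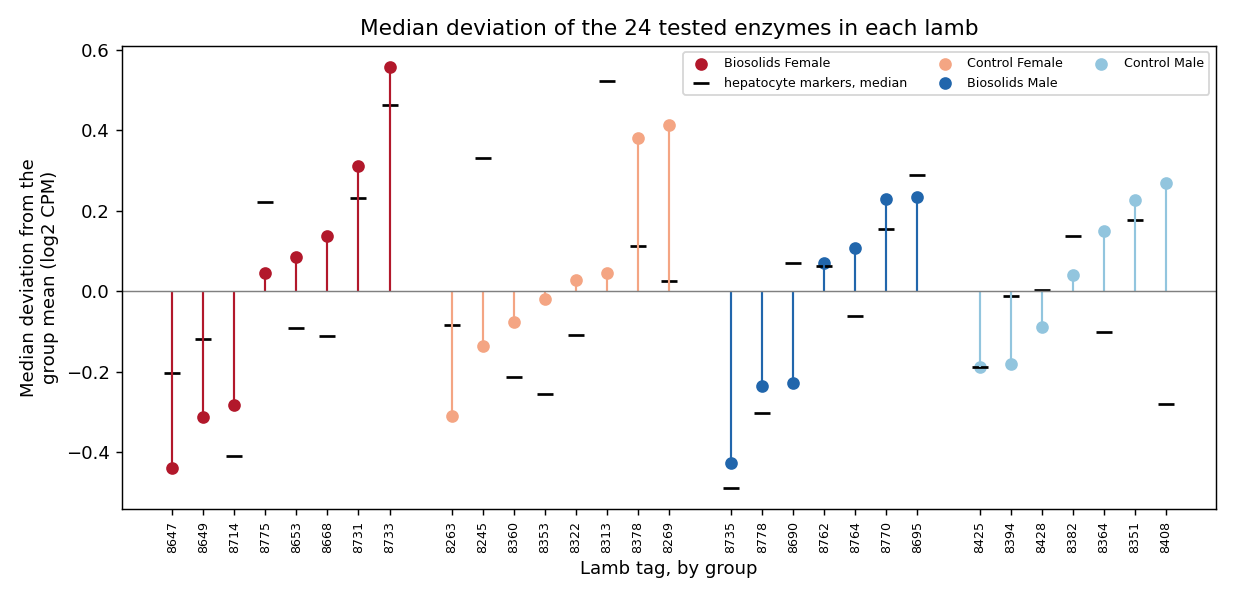
Median deviation of the 24 tested enzymes from their own group's mean in each lamb, in log2 CPM, as coloured points by group, with the median deviation of the hepatocyte markers as black bars. Biosolids females spread from -0.44 (lamb 8647) to 0.56 (lamb 8733), and control males from -0.19 to 0.27.

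The most abundant enzymes were then compared lamb by lamb, with the group means removed. Among the 45 pairs of the 10 members with the highest mean RPKM, 34 correlations were positive and 11 negative, and 11 pairs passed an adjusted p under 0.05 (permutation within groups, 100000 resamples, two-sided, Benjamini-Hochberg over 45 pairs). Each of these 11 passed by Pearson's r and by Spearman's rho. With counts scaled by totals outside ribosomal RNA, 29 of the 45 were positive and 10 passed. The points share their libraries and scaling, so the values describe these 30 lambs. The same shares over pairs of other genes were not worked out, so these counts cannot be read as particular to the enzymes.

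CYP2E1, CYP2A6 and FMO1 varied together most closely. CYP2A6 and FMO1 had a Pearson r of 0.79 and a Spearman rho of 0.74 (both permutation p = 1e-05, the smallest that 100000 resamples can give), with adjusted values of 0.00015 and 0.00045. CYP2E1 and CYP2A6 had r of 0.78 (permutation p = 1e-05, adjusted 0.00015) and rho of 0.71 (p = 0.00012, adjusted 0.0018). CYP2E1 and FMO1 had r of 0.74 (permutation p = 1e-05, adjusted 0.00015) and rho of 0.70 (p = 7e-05, adjusted 0.001575).

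Without the 2 lambs farthest from the median of the first gene these r values were 0.73, 0.71 and 0.71. Within groups they were 0.93, 0.90 and 0.86 in biosolids females, 0.84, 0.88 and 0.87 in control females, 0.83, 0.86 and 0.76 in biosolids males, and 0.42, 0.26 and 0.17 in control males. The correlation in control males was thus lower in each of the 3 pairs, and that difference was not tested.

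UGT1A1 joined these genes in part. With CYP2E1 its r of 0.38 did not pass (permutation p adjusted 0.114), and r was 0.10 with counts scaled by totals outside ribosomal RNA. Within groups that r was 0.82 in biosolids females, 0.62 in control females, -0.10 in biosolids males and -0.31 in control males. CYP2A6 and UGT1A1 had r of 0.60 (permutation p = 0.00067, adjusted 0.00503) and rho of 0.56 (p = 0.00236, adjusted 0.0177). FMO1 and UGT1A1 had r of 0.55 (permutation p = 0.00257, adjusted 0.0145) and rho of 0.48 (p = 0.0123, adjusted 0.0461).

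Both pairs of UGT1A1 that passed here depended on the scaling. With counts scaled by totals outside ribosomal RNA, r was 0.42 for CYP2A6 with UGT1A1 and 0.34 for FMO1 with UGT1A1, and neither passed. Without the 2 farthest lambs, r was 0.51 for CYP2A6 with UGT1A1 and 0.40 for FMO1 with UGT1A1. In control males FMO1 with UGT1A1 had r of -0.63, against 0.88 in biosolids females, 0.60 in control females and 0.40 in biosolids males.

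Another 2 pairs with positive r held a glutathione transferase. GSTA1-1 and MGST1 had r of 0.64 (permutation p = 0.00045, adjusted 0.00405) and rho of 0.56 (p = 0.00287, adjusted 0.0185), and r of 0.57 without the 2 farthest lambs. CYP3A24 and GSTZ1 had r of 0.51 (permutation p = 0.00718, adjusted 0.0323) and rho of 0.58 (p = 0.00189, adjusted 0.017), and r of 0.59 without them. Both pairs were positive within each of the 4 groups. GSTZ1 had r of 0.46 with GSTA1-1 and 0.45 with MGST1, with permutation p adjusted to 0.0653 and 0.0632. With counts scaled by totals outside ribosomal RNA both of these passed, at 0.60 and 0.59, as did CYP3A24 with MGST1 at 0.48. CYP3A24 correlated with CYP2E1, CYP2A6 and FMO1 at -0.04, -0.01 and -0.14, none of which passed.

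UGT1A1 ran opposite to GSTA1-1 and MGST1, while with GSTZ1 its r of -0.24 did not pass (permutation p adjusted 0.399). With GSTA1-1 it had r of -0.58 (permutation p = 0.00223, adjusted 0.0143) and rho of -0.55 (p = 0.00384, adjusted 0.0192). With MGST1 it had r of -0.48 (permutation p = 0.00924, adjusted 0.0378) and rho of -0.52 (p = 0.00381, adjusted 0.0192). Without the 2 farthest lambs these r values were -0.49 and -0.42. Within groups the first was -0.00025 in biosolids females, -0.72 in control females, -0.89 in biosolids males and -0.46 in control males, and the second lay between -0.80 and -0.31.

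**Figure D5:**
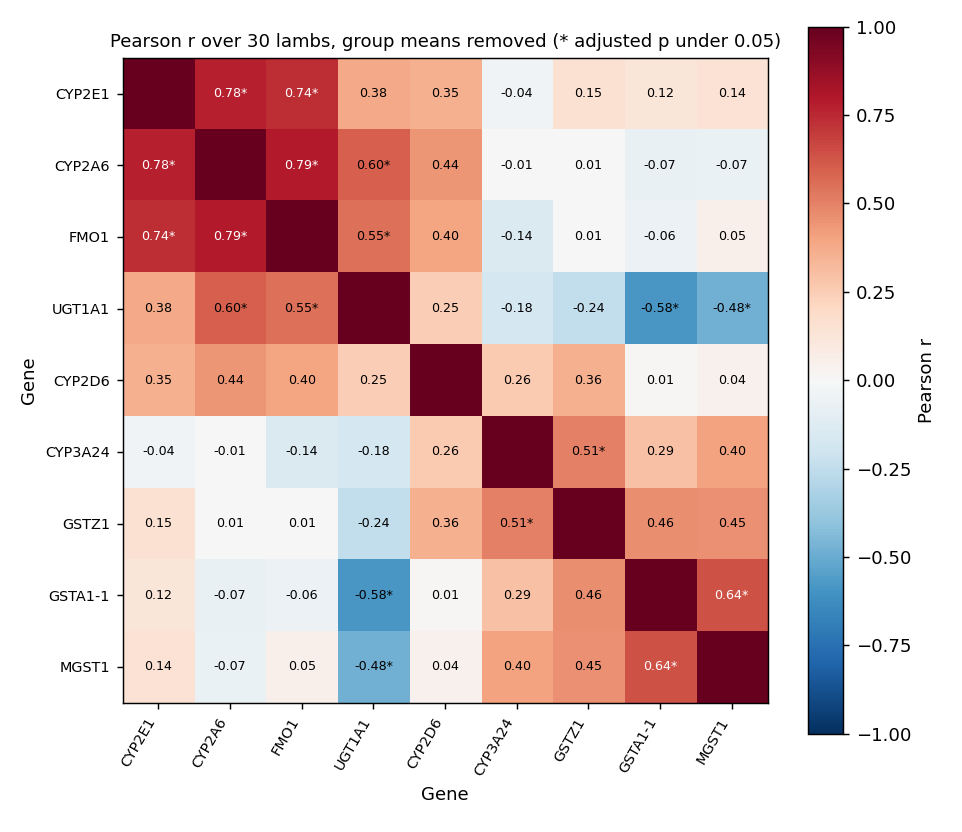
Pearson r over 30 lambs between 9 of the 10 most abundant enzymes after the group means were removed, with red for positive, blue for negative and a star for an adjusted permutation p under 0.05. CYP2E1, CYP2A6 and FMO1 form a red block. UGT1A1 is red with a star against CYP2A6 and FMO1, and without a star against CYP2E1 (0.38). It is blue against GSTA1-1 (-0.58) and MGST1 (-0.48).

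Genes that lie within 1 megabase of each other made 14 pairs, a family added after the data were seen. All 14 had a positive Pearson r, and 5 passed. Among the 45 pairs of the 10 most abundant members, 34 were positive and 11 passed. The 14 include all pairs of the UGT1A rows, which share exons. With counts scaled by totals outside ribosomal RNA, 13 of the 14 were positive and 3 passed. The part of nearness in these values was not tested. UGT1A3 with UGT1A1 and UGT1A4 with UGT1A1 had r of 0.73 and 0.70 and rho of 0.73 and 0.71 (permutation p for r 7e-05 each, adjusted 0.00049), and these rows share exons. GSTA1-1 with GSTA1 had r of 0.66 (permutation p = 0.00025, adjusted 0.00117) and rho of 0.66 (p = 0.00037, adjusted 0.00173), between 0.56 and 0.82 within the 4 groups. CYP2C18 and CYP2C19, 423 kilobases apart, had r of 0.09 (permutation p = 0.647) and rho of 0.06 (p = 0.781).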

How the data were processed

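The authors deposited 1 table of raw read counts per gene, whole numbers without normalization, for the 30 lambs. Per the labels' protocols, RNA came from frozen liver by a column kit and libraries from a TruSeq RNA kit. Per the submitters' processing notes the tools included Trimmomatic, STAR and featureCounts 1.5.0-p3, and strand and multi-mapping settings are not given in the sources used here. 7 genes broken over 25 lines were joined. Coordinates are the table's, and 28858 of 28862 rows matched by symbol had the same start and end in RefSeq's ARS-UI_Ramb_v3.0 table. Ribosomal RNA rows (25) stayed in the fit.

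In R 4.3.3 with edgeR 4.0.16, genes passing filterByExpr (17840) were scaled by TMM and fitted with a mean for each of 4 groups (robust quasi-likelihood, 26 residual degrees of freedom, biological coefficient of variation 35.2%), with Benjamini-Hochberg adjustment over all tested genes. Standard errors were derived from fold change and F. CPM and RPKM used TMM-scaled library sizes, and spreads and correlations log2 CPM with a prior count of 2. Floors of 3 counts cover counting error only. The same fit was also run on simulated counts with known changes. Its recovery is not given here, so the size of change that the tests would miss is not stated.

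Named were, for each comparison, the 2 members with the smallest p in each direction, the 10 with the highest mean RPKM, the 5 with the largest within-group SD, and the linked gene with the smallest p. Others were named for their level, position or lack of counts. The members, lists and this rule were chosen with earlier results of these data known. Alternatives were RLE size factors, DESeq2 1.42.0, limma 3.58.1 voom with sample weights, other filters, ribosomal RNA left out, fits within 1 sex or exposure, an adjusted p of 0.1 and each lamb left out. Some sequences and gene rows, and the values of 1 member that stays in the counts, are not reported here.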

Additional observations from a re-analysis of the deposited data

Results flagged for a closer look

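Among 80 sets of values (20 named members in 4 groups), 7 held a single lamb farther from the rest of its group than Dixon's critical value allows. Chance would flag about 1 in 20 sets if the values were normally distributed. That was not checked for these CPM values, so the number expected by chance is not known. In each of the 7 the flagged lamb was the highest of its group. Biosolids female 8733 held 3124 CPM of CYP2A6, where the next lamb of its group held 1345 CPM, and 82.5 CPM of GSTA1, where the next held 43.0 CPM. For SULT1C2, biosolids female 8653 held 38.4 CPM, with 8.11 CPM in the next lamb, and control female 8245 held 19.0 CPM, with 6.44 CPM in the next. Control female 8378 held 757 CPM of GSTA1-1, and the next lamb of its group 378 CPM. In control males, 8408 held 572 CPM of CYP2C19, with 269 CPM in the next lamb, and 8364 held 60.1 CPM of MGST2, with 39.3 CPM in the next.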

How the results depend on the processing

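Of the 24 log2 fold changes for which members were named, 1 changed its sign under an alternative: SULT1C2 for exposure in females was -0.50 without biosolids female 8653, and 1.15 at the other end of the fits that left out 1 lamb. The other 927 of 928 alternative values of these fold changes kept their direction and stayed on the same side of the threshold, which none had passed. Other fold changes printed, most of them near 0, also turned their sign without 1 lamb, among them CYP2C19 for exposure in males (-0.22, and 0.27 without control male 8408). The number of members called was 0 in each of the 6 comparisons under each of the alternatives run, and so was the number of linked genes called, with DESeq2, limma voom, an adjusted p of 0.1, CYP24 and FMOD counted, and lambs 8778 and 8263 left out among them. The number of pairs that co-varied was 11, and 10 without lamb 8778, without lambs 8778 and 8263, or with counts scaled by totals outside ribosomal RNA, and 12 by Spearman's rho. Under the scaling by totals, 7 pairs were shared, 4 were lost and 3 others passed (GSTA1-1 with GSTZ1, MGST1 with GSTZ1 and CYP3A24 with MGST1). There, r of FMO1 with UGT1A1 was 0.34, and the cause was not tested. The scaling by totals, Spearman's rho, the neighbouring pairs and the fits without both lambs were chosen after the data were seen. No paired analysis was possible because the groups share no tag numbers. Depth limits the 4 members under the filter, and biosolids male 8778 most of all.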
